A study of Rattus norvegicus with 12 samples.

Results

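Genes of endoplasmic reticulum (ER) stress and of the amino acid response were described in renal cortex of kidney grafts with and without the export pump MRP2 (Abcc2). The set was a list of 35 genes, each read from 1 probe set, the brightest over the 12 arrays among those that the platform annotation assigns to that gene alone. A probe set was found for 34 of the 35, of 14218 genes named in this way on the array, and Ern1 was not analysed here. The 34 genes formed 4 groups, namely 12 genes of the ATF4 arm, 3 sensors and transcription factors, 15 ER chaperones and folding enzymes (the ER chaperone arm) and 4 genes of ER-associated degradation (ERAD). Each array held total RNA from the cortex of 1 kidney graft in a male rat. The graft genotype was wild type on 6 arrays and ABCC2-/- on the other 6, the latter called deficient here, and every recipient was a wild-type rat. The donor stock, the allele, the age and the time after transplantation are not given in the sources used here. Separate donors are not stated either, and p-values therefore measure only the spread between these samples.

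The unfolded protein response begins with sensors in the ER membrane. PERK (Eif2ak3) phosphorylates the translation factor eIF2 alpha, which lowers overall protein synthesis and favours translation of ATF4, and other kinases reach the same point from amino acid shortage, heme deficiency or viral RNA. ATF4 then raises genes of amino acid synthesis and transport and stress regulators such as CHOP (Ddit3), whereas ATF6 and spliced XBP1 raise the ER chaperones, folding enzymes and ERAD genes. In the kidney the proximal tubule is rich in secretory and transport proteins and also synthesizes serine.

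Promoter windows that hold an element known from either arm are shown first, since they are what the later comparison by element rests on. RefSeq promoter windows (build GRCr8) were matched for 29 of the 35 genes, and the 250 bases before the start of the first-listed window of each gene were searched on both strands. The ER stress response element (ERSE) was spelled CCAAT and CCACG with any 9 bases between them, the shorter ERSE-II ATTGG and CCACG with any 1 base between them, the XBP1 element (UPRE) TGACGTGG and the C/EBP-ATF response element (CARE), the site type that ATF4 binds with a C/EBP partner, TGATGNAA. ERSE was found in 21 of 27457 windows (0.0765%), and 7 of these 21 belonged to members, 6 of them in the ER chaperone arm. The ERSE and its flanks follow from 5′ to 3′ on the strand of the gene, with the fixed bases of the element in capitals.
Xbp1: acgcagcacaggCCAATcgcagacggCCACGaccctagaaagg
Hspa5: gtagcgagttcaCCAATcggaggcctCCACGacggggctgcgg
Hsp90b1: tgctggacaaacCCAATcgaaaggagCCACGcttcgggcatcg
Dnajc3: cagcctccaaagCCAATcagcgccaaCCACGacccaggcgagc
Canx: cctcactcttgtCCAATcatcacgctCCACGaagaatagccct
Calr: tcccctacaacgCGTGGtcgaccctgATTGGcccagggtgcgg
Creld2: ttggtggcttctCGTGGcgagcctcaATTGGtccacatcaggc
The first 5 read in the direction of the gene, and those of Calr and Creld2 read on the opposite strand, where the capitals are CGTGG and ATTGG. With the strand of the gene in brackets, they lie at chr14:84604546-84604588 (+ strand), chr3:38452961-38453003 (+ strand), chr7:23012439-23012481 (- strand), chr15:102432522-102432564 (+ strand), chr10:35158057-35158099 (- strand), chr19:40213123-40213165 (+ strand) and chr7:121789227-121789269 (+ strand). Hsp90b1 held a second ERSE on the opposite strand of the same window.

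CARE stood in 899 of the 27457 windows (3.27%) and in 4 of the 29 member windows, 3 of them in the ATF4 arm. ERSE-II stood in 12 windows in all (0.0437%), among them those of Hyou1 and Herpud1, and Herpud1 thus held an element of each arm. These windows are shown because the 2 kinds of element could be set beside the differences of their genes, with the fixed bases in capitals.
Trib3 CARE: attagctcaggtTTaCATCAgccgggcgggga
Chac1 CARE: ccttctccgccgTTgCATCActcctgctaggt
Nupr1 CARE: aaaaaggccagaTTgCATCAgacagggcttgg
Herpud1 CARE: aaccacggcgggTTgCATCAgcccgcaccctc
Herpud1 ERSE-II: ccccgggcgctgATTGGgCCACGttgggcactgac
Hyou1 ERSE-II: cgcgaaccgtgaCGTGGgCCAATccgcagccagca
The CARE of all 4 genes read on the opposite strand, as did the ERSE-II of Hyou1. In order these stretches lie at chr3:161275535-161275566 (- strand), chr3:126795952-126795983 (+ strand), chr1:190645937-190645968 (- strand), chr19:10614872-10614903 (- strand), chr19:10614809-10614843 (- strand) and chr8:53602682-53602716 (+ strand). UPRE was found in 151 windows (0.550%), and the sole member with it was Hyou1, where it overlaps the ERSE-II shown, 1 of 2 in that window. A match describes letters in a window and is neither a measured site nor a cause of a level.

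The signal of a probe set is given as deposited, on a linear scale with no unit, and a difference is log2(deficient) minus log2(wild type) from a fit over 18625 probe sets, with its standard error (SE) and 95% interval. Abcc2, the targeted gene, was 6.47-fold lower in deficient grafts, with a signal of 0.899 ± 0.0746 (SD, n = 6) against 0.141 ± 0.0594 (SD, n = 6) and an adjusted p of 8.35e-06 in limma, and the position of its probes relative to the genetic change is not given. The arrays fell into 2 sets of 6, each with 3 arrays of each genotype, by the first component of the variation within genotypes, which held 32.6% of it. Array set 1 held wild-type replicates 1, 6 and 9 and deficient replicates 5, 9 and 11, and array set 2 the others. In each genotype set 1 was the 3 samples listed first in the series and set 2 the 3 listed last. No label names the sets. The ratio of the 3′ to the 5′ Gapdh control probe sets, a measure of RNA integrity and labelling, was 1.28 to 1.37 in the deficient arrays of set 2 and 1.64 to 1.93 in all other arrays. The same ratio of the beta-actin control probe sets was higher on every array, at 4.48 to 6.39 in the deficient arrays of set 2 and 7.06 to 9.79 in all others. Values are therefore given within the sets too, but since the sets were defined from these arrays, a call made within a set or with the set as a block describes them and is no independent test. Of 17 proximal tubule markers 15 were tested, with a summed signal of 531 to 664 in wild-type and 532 to 601 in deficient grafts. Their differences were positive in 5 and negative in 10, from -0.38 (Slc5a2, 7.54 to 11.4 in wild-type and 6.15 to 9.37 in deficient grafts) to 0.24 (Slc7a13), and Slc5a2 and Cubn (-0.22) had unadjusted p of 0.00376 and 0.0481 in limma. In bulk cortex fewer cells of a type and less RNA per cell cannot be told apart.

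No member passed an adjusted p of 0.05, in limma with Benjamini-Hochberg adjustment over all probe sets, where 4 of 18625 (0.0215%) passed. All 34 members were above the level filter, so each was tested, and the adjusted p lay between 0.606 and 0.995. The differences were negative in 25 members and positive in 9, that is 73.5% negative against 54.6% over all probe sets, where 45.4% were positive, and their median was -0.087 against -0.023. Over the 10639 genes tested, read like the members from their brightest tested probe set, 58.6% were negative and the median was -0.041. At an unadjusted p of 0.05 or less 5 members were lower, 14.7% against 4.63% over all probe sets, and 0 were higher, against 3.35%. These 5 were Sesn2, Dnajb11, Syvn1, Xbp1 and Herpud1. In exact two-sided permutation tests, here and below unadjusted, their p were in this order 0.0173, 0.013, 0.0216, 0.0498 and 0.104. For other members described below the exact permutation p were 0.0736 (Pdia4), 0.0779 (Chac1), 0.0974 (Hspa5), 0.0974 (Sel1l), 0.123 (Hsp90b1) and 0.167 (Canx). What share of all probe sets reached such exact p is not given here. No member separated the genotypes without overlap over all arrays, as 0.274% of probe sets did with deficient arrays lower and 0.161% with deficient arrays higher. The 95% intervals of all 34 members lay between -0.69 and 0.69 on the log2 scale.

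**Figure D1:**
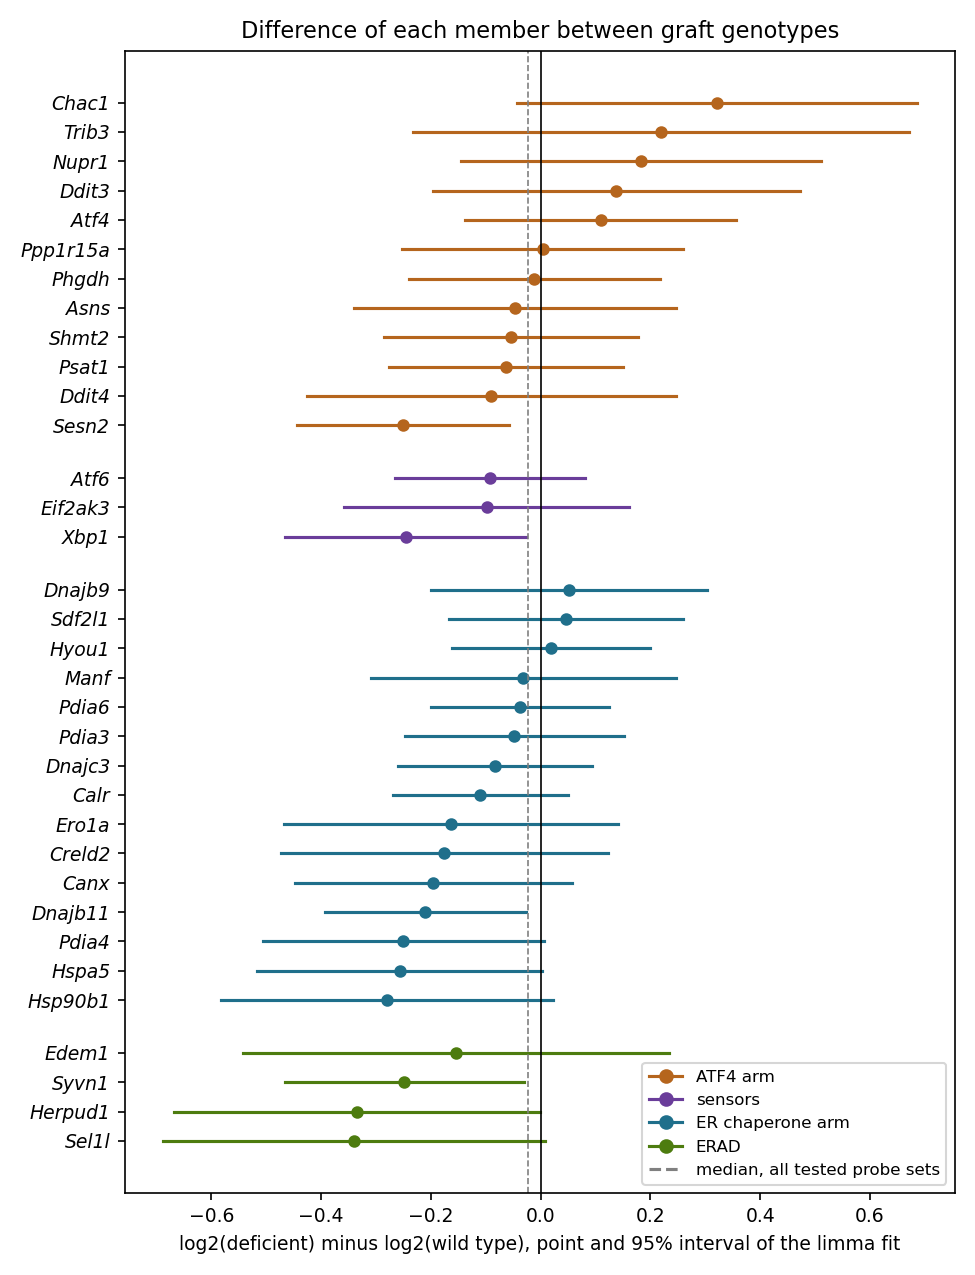
Difference between graft genotypes for the 34 genes, as log2(deficient) minus log2(wild type) on the x axis, with points for the estimate and bars for the 95% interval of the limma fit (6 arrays a genotype). ATF4 arm genes lie on both sides of 0, with Chac1 at 0.32 and Sesn2 at -0.25, whereas 12 of 15 ER chaperone arm genes and 4 of 4 ERAD genes lie below it; the dashed line is the median of all tested probe sets, -0.023.

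The ATF4 arm was evenly divided, with 6 positive and 6 negative differences and a median of -0.0040. Atf4 itself, the transcription factor of the arm, had signals from 6.62 to 9.31 (median 7.04) in wild-type and from 6.44 to 10.2 (median 8.09) in deficient grafts. The groups overlapped over most of their range, and the highest value was in a deficient array of set 2. The difference was 0.11 (SE 0.12, 95% interval -0.14 to 0.36, adjusted p = 0.743). Ddit3, which encodes the CHOP factor of prolonged ER stress, had signals from 1.49 to 1.85 (median 1.55) in wild-type and from 1.2 to 2.28 (median 1.91) in deficient grafts. The deficient arrays lay on both sides of the wild-type range, 2 below it and 3 above it. Its difference was 0.14 (SE 0.16, 95% interval -0.20 to 0.47, adjusted p = 0.759). In set 2 the values were 1.5 to 1.85 in wild-type and 2.25 to 2.28 in deficient arrays, without overlap, and in set 1 they were 1.49 to 1.59 in wild-type and 1.2 to 1.57 in deficient arrays, so the sets went opposite ways, with differences of 0.47 and -0.20. Ddit3 passed in set 2 alone (limma adjusted p = 0.0286), where 6.59% of all probe sets passed, 3.8% higher and 2.79% lower, and with the Gapdh ratio as a covariate over all arrays its difference was -0.13.

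Chac1, an enzyme that degrades glutathione and a target of ATF4 and CHOP, had the highest difference in the set. Its signals ran from 0.247 to 0.304 (median 0.285) in wild-type and from 0.268 to 0.499 (median 0.328) in deficient grafts. The difference was 0.32 (SE 0.17, 95% interval -0.043 to 0.69, adjusted p = 0.628), and 3 deficient arrays, those of set 2, lay above every wild-type array. In set 1 the ranges overlapped and the difference was 0.063, against 0.58 in set 2. Nupr1, a stress-induced chromatin protein, had signals from 0.614 to 0.846 (median 0.676) in wild-type and from 0.597 to 1.08 (median 0.825) in deficient grafts. The 3 deficient arrays of set 2 again lay above every wild-type array, with a difference of 0.38 there and -0.017 in set 1. Over all arrays the Nupr1 difference was 0.18 (SE 0.16, 95% interval -0.15 to 0.51, adjusted p = 0.69). Trib3, a pseudokinase that restrains ATF4 and CHOP, was at 0.22 (SE 0.21), with its highest signal, 0.37, in deficient replicate 14 and the other deficient arrays at or under 0.208. Its mean log2 signal, -2.34, was close to the level filter at -2.53. The other Trib3 probe sets, dimmer and below that filter, were at 0.19 (SE 0.19) and -0.23 (SE 0.26). With the Gapdh ratio as a covariate Chac1 was at 0.090, Nupr1 at -0.080 and Trib3 at 0.10.

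Sesn2, a sestrin that restrains mTORC1 when leucine is low, went the other way and had the lowest p of the set. Its signals ran from 5.13 to 6.39 (median 5.86) in wild-type and from 4.36 to 6.06 (median 4.71) in deficient grafts. Of the 6 deficient arrays 5 lay below every wild-type array, and the sixth, a set 1 array, lay inside the wild-type range. The difference was -0.25 (SE 0.091, 95% interval -0.44 to -0.057, adjusted p = 0.606), that is 1.19-fold lower, with 0.0173 as the p of an exact two-sided permutation. It was -0.13 in set 1 and -0.37 in set 2, where it passed (limma adjusted p = 0.0282), and with the Gapdh ratio as a covariate it was -0.19. The other probe set of Sesn2, a dimmer one, was at -0.25 (SE 0.26).

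The amino acid synthesis genes of the arm had differences close to 0. Asns, the asparagine synthetase gene, had signals from 0.452 to 0.6248 (median 0.571) in wild-type and from 0.441 to 0.669 (median 0.503) in deficient grafts. These ranges overlapped, with 2 deficient arrays above and 1 below the wild-type values, and the difference was -0.046 (SE 0.14, 95% interval -0.34 to 0.25, adjusted p = 0.912). In set 2 all deficient arrays lay below all wild-type arrays (-0.26), while in set 1 the difference was 0.16. The serine pathway genes Phgdh, Psat1 and the mitochondrial glycine-forming enzyme gene Shmt2 were at -0.011, -0.063 and -0.055, with the 95% interval of Phgdh running from -0.24 to 0.22. For Psat1 the wild-type arrays of set 1 had 32.8 to 33.5 and those of set 2 24.7 to 26.5. Ppp1r15a, whose product GADD34 brings the phosphatase that reverses eIF2 alpha phosphorylation, was at 0.0034, and Ddit4, an mTORC1 inhibitor, at -0.090. Ddit4 had opposite differences in the sets, 0.27 in set 1, where all deficient arrays were higher, and -0.45 in set 2.

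All 3 sensors and factors had negative differences. Xbp1, the factor whose RNA is spliced by IRE1, had signals from 6.63 to 9.72 (median 8.08) in wild-type and from 5.78 to 7.81 (median 6.71) in deficient grafts. Each deficient array lay below the wild-type mean, and 3 of the 6 lay below the lowest wild-type array. The difference was -0.25 (SE 0.10, 95% interval -0.47 to -0.026, adjusted p = 0.614), with an exact two-sided permutation p of 0.0498. In set 1 the genotypes did not overlap, at 8.52 to 9.72 in wild-type and 6.39 to 7.81 in deficient arrays, and in set 2 they did, with a difference of -0.14. Eif2ak3, the PERK gene, was at -0.10 (SE 0.12), with signals from 0.961 to 1.52 (median 1.2) in wild-type and from 0.945 to 1.39 (median 1.12) in deficient grafts. Atf6, the sensor that is cleaved in the Golgi, was at -0.091 (SE 0.082), with signals from 3.68 to 4.21 (median 3.99) in wild-type and from 3.34 to 4.31 (median 3.71) in deficient grafts. Spliced and unspliced Xbp1 RNA were not measured separately.

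In the ER chaperone arm 12 of 15 genes had a negative difference, with a median of -0.11. Hspa5, which encodes BiP, the main ER chaperone and the gene with an ERSE shown above, had signals from 16.4 to 28 (median 21.7) in wild-type and from 14.1 to 20.5 (median 18.2) in deficient grafts. Each deficient array lay below the wild-type mean, yet the ranges overlapped because wild-type arrays of set 2 reached down to 16.4. The difference was -0.26 (SE 0.12, 95% interval -0.52 to 0.0030, adjusted p = 0.6245), or 1.19-fold lower. In set 1 the values were 22 to 28 in wild-type and 18 to 18.9 in deficient arrays, without overlap. In set 2 they were 16.4 to 21.3 in wild-type and 14.1 to 20.5 in deficient arrays, and the difference was -0.11 against -0.40 in set 1.

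Hsp90b1, the ER member of the HSP90 family (GRP94), had the most negative difference of the arm. Its signals ran from 10.4 to 15.7 (median 13.7) in wild-type and from 8.53 to 13.1 (median 11.6) in deficient grafts. In set 1 they were 15.7 on all 3 wild-type arrays and 12.7 to 13.1 in deficient arrays, without overlap, and in set 2 they were 10.4 to 11.8 in wild-type and 8.53 to 10.5 in deficient arrays, where the ranges met. The difference was -0.28 (SE 0.14, 95% interval -0.58 to 0.022, adjusted p = 0.628) over all arrays, -0.29 in set 1 and -0.27 in set 2. With the array set as a block it passed (limma adjusted p = 0.0392), as 0.601% of all probe sets did, and it was the sole member that did. In set 1 alone, and over all arrays with the Gapdh ratio as a covariate, 0 members passed in limma, against 0.0215% of probe sets in each. At an unadjusted p of 0.05 or less 9 members were lower and 1 higher in set 1, where 8.9% and 2.66% of probe sets were, and 0 with the covariate, against 2.21% lower and 1.39% higher. With the Gapdh ratio beside that block the difference was -0.30 and the adjusted p 0.199, in a fit where 0.0161% of probe sets passed, and with the ratio alone the difference was -0.10.

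Dnajb11 and Canx were lower in the deficient arrays of both sets. Dnajb11, a J-domain cochaperone of BiP, had signals from 4.02 to 4.97 (median 4.46) in wild-type and from 3.29 to 4.3 (median 3.98) in deficient grafts, and 4 of 6 deficient arrays lay below every wild-type array. Its difference was -0.21 (SE 0.086, 95% interval -0.39 to -0.028, adjusted p = 0.612), with an exact two-sided permutation p of 0.013. Within set 1 it had 4.48 to 4.97 in wild-type and 4.01 to 4.3 in deficient arrays, and within set 2 4.02 to 4.43 in wild-type and 3.29 to 3.96 in deficient arrays. Canx, which encodes the membrane lectin calnexin, had 16.6 to 17.1 in wild-type and 14.7 to 15.8 in deficient arrays of set 1 and 12.2 to 13.7 in wild-type and 10.5 to 12 in deficient arrays of set 2. Over all arrays its difference was -0.20 (SE 0.12), and with the set as a block the SE was 0.052 and the adjusted p in limma 0.08. These were the 2 of 34 members with no overlap and lower deficient arrays in each set, 5.88% against 2.57% over all probe sets, and 0 members were higher in this way, against 1.0% of probe sets. The other bright probe set of Canx was at -0.11 and the dim one at 0.016.

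The disulfide isomerases of the arm differed among themselves. Pdia4 had signals from 1.34 to 1.94 (median 1.62) in wild-type and from 1.13 to 1.6 (median 1.42) in deficient grafts, and each deficient array lay below the wild-type mean. Its difference was -0.25 (SE 0.12, 95% interval -0.51 to 0.0063, adjusted p = 0.6245). Pdia3 and Pdia6 were at -0.048 and -0.038, with 95% intervals of -0.25 to 0.15 and -0.20 to 0.12. Ero1a, the oxidase that recharges these enzymes, was at -0.16. Calr, which encodes the lectin calreticulin, was at -0.11, Creld2 at -0.18, Dnajc3, an inhibitor of PERK with a J domain, at -0.083 and Manf, a secreted ER stress protein, at -0.032. The 3 genes with positive values were Dnajb9 at 0.052, Sdf2l1 at 0.047 and Hyou1, an HSP70-like nucleotide exchange factor, at 0.019. With the median of each array subtracted all 3 were negative. The other probe set of Hyou1, a dimmer one, was at 0.46 (SE 0.24).

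Dnajb9, the J-domain protein ERdj4, which holds IRE1 in its inactive form, turned over between the array sets. In set 1 it had 5.24 to 5.99 in wild-type and 4.25 to 4.67 in deficient arrays, and in set 2 3.62 to 4.29 in wild-type and 4.92 to 5.54 in deficient arrays. Neither set had an overlap, and the differences were -0.29 and 0.40. It was the sole member of 34 (2.94%) with this pattern, which 1.5% of all probe sets had. Whether the sets differ was not tested, since the sets were defined from these arrays, and set 2 is where the Gapdh ratio differed between genotypes. With that ratio as a covariate the difference was -0.0087.

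**Figure D2:**
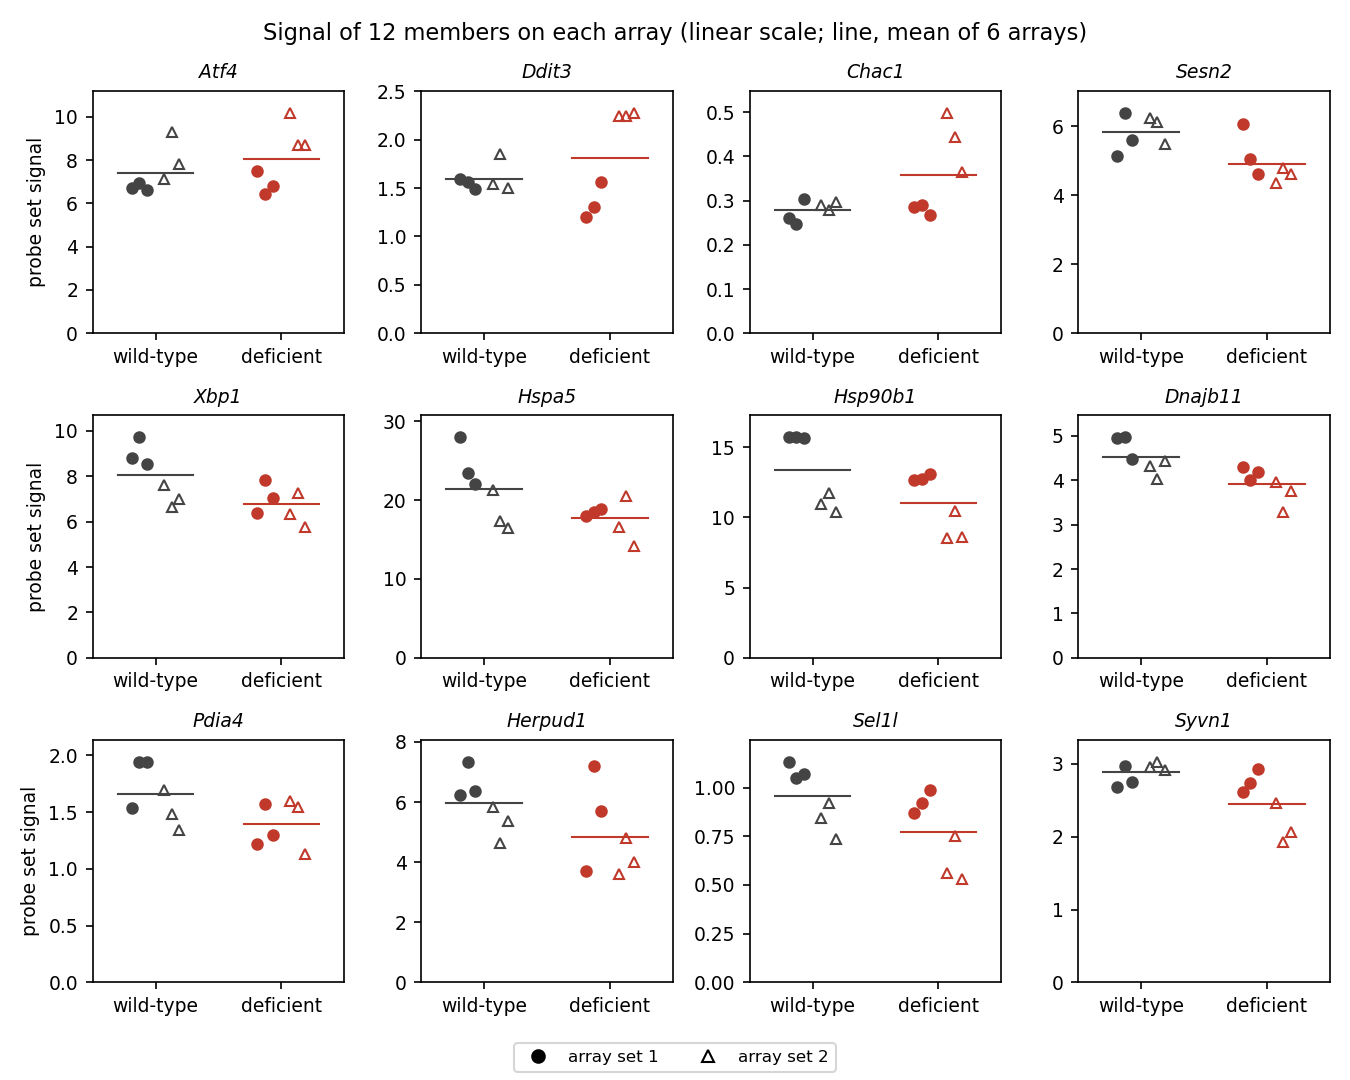
Signal of 12 of the genes on each array, on a linear y axis from 0, by graft genotype; filled circles are array set 1, open triangles array set 2 and lines the mean of 6 arrays. In Hspa5, Hsp90b1 and Xbp1 the wild-type arrays of set 1 stand above all others, whereas in Ddit3 and Chac1 the deficient arrays of set 2 do.

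The 4 ERAD genes all had negative differences, with a median of -0.29. Syvn1, which encodes the ubiquitin ligase HRD1, had signals from 2.69 to 3.03 (median 2.94) in wild-type and from 1.94 to 2.93 (median 2.54) in deficient grafts. Of the deficient arrays 4 lay below every wild-type array. The difference was -0.25 (SE 0.10, 95% interval -0.47 to -0.031, adjusted p = 0.612), with an exact two-sided permutation p of 0.0216. In set 2 the values were 2.92 to 3.03 in wild-type and 1.94 to 2.46 in deficient arrays without overlap (-0.47, limma adjusted p = 0.0265), and in set 1 the difference was -0.026. The Gapdh covariate brought the value over all arrays to -0.12.

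Herpud1, an ER membrane protein of the same ligase complex, had signals from 4.65 to 7.34 (median 6.04) in wild-type and from 3.62 to 7.21 (median 4.4) in deficient grafts, and 3 deficient arrays lay below every wild-type array while 1, in set 1, lay above the wild-type mean. Its difference was -0.33 (SE 0.16, 95% interval -0.67 to -0.00059, adjusted p = 0.6245). It was -0.31 in set 1 and -0.36 in set 2. Sel1l, the partner that stabilizes HRD1, had signals from 0.734 to 1.13 (median 0.985) in wild-type and from 0.531 to 0.99 (median 0.808) in deficient grafts. Its difference was -0.34 (SE 0.16, 95% interval -0.69 to 0.0071, adjusted p = 0.6245), -0.23 in set 1, where the genotypes did not overlap, and -0.45 in set 2. Edem1, which marks misfolded glycoproteins for removal, was at -0.15 (SE 0.18), and its set 2 arrays of both genotypes lay lower, with wild-type values of 4.4 to 5.7 against 6.29 to 8.71 in set 1.

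To compare the arms, each gene was centred on its mean over the 12 arrays and the centred log2 signals of an arm were averaged on each array. These averages are given as values without a test, since the members were chosen with results known. The ER chaperone arm ran from -0.11 to 0.17 in wild-type grafts and from -0.23 to 0.035 in deficient grafts. The 3 wild-type arrays of set 1 stood above all other arrays, between 0.13 and 0.17, and deficient replicate 14 was lowest. The ATF4 arm ran from -0.081 to 0.085 in wild-type and from -0.10 to 0.15 in deficient grafts, with overlap. The arm was higher in deficient than in wild-type arrays of set 2, by 0.078, and was at -0.0016 in set 1.

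The ATF4 arm minus the ER chaperone arm averaged -0.077 ± 0.14 (SD, n = 6) in wild-type and 0.077 ± 0.17 (SD, n = 6) in deficient grafts, a difference of 0.15 that lay between the SDs of the genotypes. It ran from -0.25 to 0.092 and from -0.13 to 0.32, so that 2 deficient arrays, replicates 3 and 14 of set 2, lay above every wild-type array. Within set 1 the wild-type arrays were between -0.25 and -0.16 and the deficient arrays between -0.13 and 0.049, without overlap. Within set 2 they were between -0.047 and 0.092 and between 0.041 and 0.32, with overlap. The difference was 0.15 in set 1 and 0.15 in set 2. The ER chaperone arm was at -0.16 in set 1 and at -0.075 in set 2. With the Gapdh ratio as a covariate the difference between the arms was 0.065, and with the array set as a block beside that ratio 0.16.

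**Figure D3:**
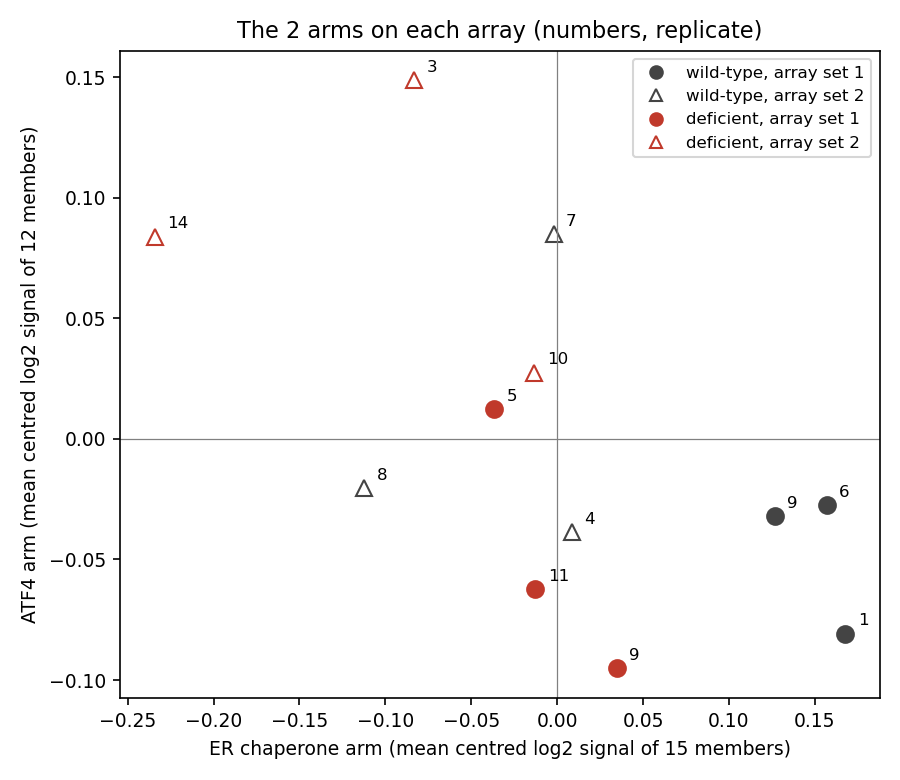
Mean centred log2 signal of the ER chaperone arm (x axis, 15 genes) against that of the ATF4 arm (y axis, 12 genes) on each of 12 arrays, coloured by genotype, with array set by symbol and the replicate number beside each point. The 3 wild-type arrays of set 1 lie at the right, between 0.13 and 0.17 on the x axis, and deficient replicates 3 and 14 lie at the upper left.

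For single genes, log2 Asns minus log2 Hspa5 on each array was 0.21 higher in deficient grafts (SD 0.32 in wild-type and 0.28 in deficient grafts, n = 6 each), with an exact two-sided permutation p of 0.245. Ddit3 minus Hspa5 was 0.39 higher (SD 0.33 and 0.52, n = 6 each), with 3 deficient arrays above every wild-type array and an exact permutation p of 0.162. Adjusted over these 2 pairs both p were 0.245. For Asns the sets went opposite ways, 0.56 in set 1 and -0.14 in set 2, and for Ddit3 they were 0.20 and 0.59.

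The members were then compared between the array sets. Of 34 members 16 were negative in both sets, 47.1% against 31.9% of all probe sets, 4 (11.8%) were positive in both, where 21.9% of all probe sets were, and 14 differed in sign. The 16 were the 3 sensors, the 4 ERAD genes, 7 of the ER chaperone arm (Hspa5, Hsp90b1, Dnajb11, Pdia4, Pdia6, Canx and Creld2) and, in the ATF4 arm, Sesn2 and Shmt2. Those positive in both were Atf4, Trib3, Chac1 and Sdf2l1. In set 1, 8 members (23.5%) had all deficient arrays below all wild-type arrays, against 13.2% of all probe sets, and 2 (5.88%) had them above, Ddit4 and Hyou1, against 4.68%. Of the 8, 6 belonged to the ER chaperone arm. In set 2, 9 (26.5%) were below, against 14.4%, and 4 (11.8%) above, against 15.2%, and 6 of these 13 belonged to the ATF4 arm.

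**Figure D4:**
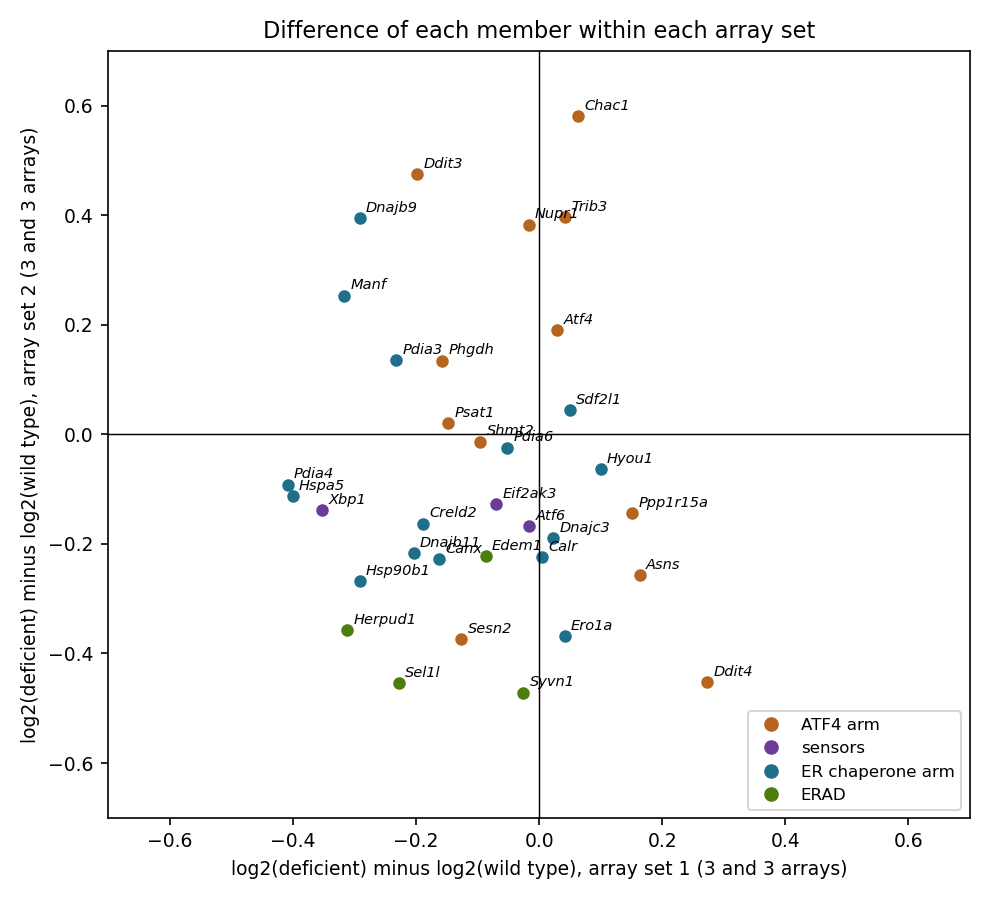
Difference of each gene, log2(deficient) minus log2(wild type), in array set 1 (x axis) against array set 2 (y axis), each from 3 and 3 arrays, coloured by group. The 16 genes negative in both sets lie at the lower left, and Dnajb9 (-0.29 and 0.40) and Ddit3 (-0.20 and 0.47) lie in the upper left.

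The promoter elements shown above were set beside these differences as a description. All 7 members with an ERSE had a negative difference, from -0.28 (Hsp90b1) to -0.083 (Dnajc3), with a median of -0.20. In set 2 all 7 were negative too, but in set 1 Calr (0.0044) and Dnajc3 (0.023) were positive. The 5 ER chaperone arm genes whose window held no ERSE ran from -0.25 (Pdia4) to 0.052 (Dnajb9), and 2 of them, Dnajb11 and Pdia4, were negative. These 5 include Dnajb9, at -0.29 in set 1 and 0.40 in set 2, and Hyou1, at 0.019, whose window held ERSE-II and UPRE. Among 8 other tested genes with an ERSE-II 4 were negative, with a median of -0.0020, and among 67 with a UPRE 47 were, with a median of -0.068. Among 8 other tested genes with an ERSE 5 were negative, with a median of -0.10, beside -0.042 over the 8898 tested genes with a window. The 3 ATF4 arm genes with a CARE, Trib3, Chac1 and Nupr1, were the 3 highest of the arm, between 0.18 and 0.32. The 9 whose searched window held no TGATGNAA, among them Asns and Ddit3, had a median of -0.046. Elements outside that window or of another spelling were not searched for, so these 9 are not shown to lack a CARE. In set 1 Trib3, Chac1 and Nupr1 were at 0.042, 0.063 and -0.017, and in set 2 at 0.40, 0.58 and 0.38. With the Gapdh ratio as a covariate they were at 0.10, 0.090 and -0.080. Herpud1, with an element of both kinds, was at -0.33. Among 149 other tested genes with a CARE the median was -0.040, and 63.1% were negative against 59.0% of all tested genes with a window.

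Other genes of these pathways were read from the same fit. Of 47 further ATF4 and amino acid response genes with a probe set 39 were tested, of which 12 had a positive and 27 a negative difference and 0 passed in limma (3 lower and 0 higher at an unadjusted p of 0.05 or less), with a median of -0.078 against -0.041 over the 10639 genes tested. The 2 with the lowest p were the aminoacyl-tRNA synthetase genes Eprs1, at -0.29 (SE 0.10), and Lars1, at -0.24 (SE 0.11). Eprs1 was at 0.013 in set 1 and -0.58 in set 2. In set 2 alone 3 genes of this list passed in limma, Eprs1 lower and Gdf15 (0.69) and Psph (0.45) higher, against 2.79% of probe sets lower and 3.8% higher. Of 14 genes of the eIF2 alpha kinases and translation control 7 were positive and 7 negative, and 0 passed (0 lower and 1 higher unadjusted). They held Eif2b3, a subunit of the exchange factor for eIF2, at 0.25 (SE 0.10) and Gcn1, an activator of the amino acid sensing kinase, at -0.35 (SE 0.18). Eif2b3 had signals of 0.535 to 0.627 in wild-type and 0.657 to 0.751 in deficient grafts, with no overlap over the 12 arrays, as in 0.161% of all probe sets.

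Of 78 further genes of ER folding, translocation and degradation with a probe set 76 were tested, with 33 positive and 43 negative differences, 0 passing (2 lower and 0 higher unadjusted) and a median of -0.025. Sec31a, a subunit of the coat of vesicles that leave the ER, had the lowest p, at -0.32 (SE 0.080, limma adjusted p = 0.56). Its signals were 2.46 to 2.95 in wild-type and 1.97 to 2.32 in deficient grafts, again without overlap, as in 0.274% of all probe sets, and it was at -0.31 and -0.34 in the sets. Dnajc10, a reductase with a J domain that works with BiP, was at -0.33 (SE 0.13), and at -0.33 and -0.33 in the sets. With the array set as a block both passed in limma (adjusted p = 0.0442 for Sec31a and 0.0386 for Dnajc10), the sole 2 of the 76 that did, against 0.601% of probe sets. With the Gapdh ratio beside that block their differences were -0.32 and -0.34 and the adjusted p 0.23 and 0.208. In set 2 alone 7 others of the 76 passed, 3 lower (P4hb, Ssr3 and Vcp) and 4 higher (Ppib, Rcn1, Selenos and Selenok). Of all probe sets 2.79% passed lower there and 3.8% higher. The median of this wider list lay above that of all genes, and that of the ER chaperone arm below it.

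Marker lists of other cell types were read beside these groups. Of 10 plasma cell markers, cells rich in ER chaperones, 5 were tested, 1 of them Xbp1 itself. Their summed signal was 8.85 to 11.5 in wild-type and 7.79 to 9.71 in deficient grafts. Most of it was Xbp1, at 6.63 to 9.72 and 5.78 to 7.81, so the sum mainly repeats that member. Of the 5 genes 4 had a negative difference and 1, Fkbp11 (0.23), a positive one. The B cell genes Cd79a, Cd79b and Ms4a1 and the plasma cell genes Mzb1, Irf4 and Tnfrsf17 were not among the tested genes. Markers of glomerulus and endothelium had 8 negative differences and 1 positive. Myeloid markers had 11 positive and 3 negative differences, with summed signals of 44.9 to 56.5 and 45.5 to 69.6, and injured tubule markers 7 and 1, with 17.6 to 25.3 and 17.9 to 25. Lymphocyte markers had 2 positive and 8 negative differences among 10 tested of 19, those of the distal nephron and collecting duct 4 and 7, those of fibroblasts and muscle 7 and 2 and those of blood 1 and 3. In limma no marker passed over all arrays without a block. At an unadjusted p of 0.05 or less 8 markers were lower, 1 of them the member Xbp1, and 3 higher. The tested markers numbered 15 for proximal tubule, 11 for distal nephron and collecting duct, 9 for glomerulus and endothelium and 10 for lymphocytes. They numbered 5 for plasma cells, 14 for myeloid cells, 8 for injured tubule, 9 for fibroblasts and muscle and 4 for blood. Of all probe sets 4.63% were lower and 3.35% higher at that level. With the array set as a block Slc26a4 (-0.42), of intercalated cells, and Krt8 (-0.28), of the injured tubule list, passed. Each had an adjusted p of 0.0386 in limma, in a fit where 0.601% of all probe sets passed. With the Gapdh ratio beside that block the adjusted p were 0.266 and 0.162. In set 2 alone Slc5a2, Slc12a3, Slc4a1 and Slc26a4 passed lower and Spp1 higher, where 2.79% of all probe sets passed lower and 3.8% higher. The part of these cell types in the values of the members was not tested.

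Covariation between grafts of a genotype was asked within each array set, because the sets stood apart. With genotype means removed, 10 of 18 ER chaperone arm and ERAD genes had a positive correlation with Hspa5 over the 6 arrays of set 1, with r between -0.65 and 0.85, and 15 of 18 in set 2, with r between -0.52 and 0.97. Of these genes 8 were positive in both. The share of all probe sets with a positive r within a set, with Hspa5 or with Asns, is not given here. Over all 12 arrays, where the sets stood apart, the median r with Hspa5 was 0.44 for the 18 genes and 0.11 over 18624 probe sets. The lowest exact permutation p adjusted over the 18 genes was 0.5 in set 1 and 0.375 in set 2 for Pearson's r, and 0.778 and 0.5 for Spearman's rho. With Asns, 2 of the 11 other ATF4 arm genes had a positive correlation in set 1 and 5 in set 2, and 6 were negative in both, among them Chac1 (r = -0.73 and -0.43, with exact permutation p of 0.278 and 0.306). The lowest adjusted exact p in this family was 0.48 in set 1 and 0.509 in set 2. The smallest p that these 6 arrays allow before adjustment is 0.0278. Over all 12 arrays, which pools the sets, 0 of the 29 genes passed by permutation, with 6 at an unadjusted p of 0.05 or less for Pearson's r. Of these, Hsp90b1, Canx, Creld2 and Sel1l were positive with Hspa5, and Chac1 and Phgdh were negative with Asns. At that level the share of all probe sets is not given here.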

How the data were processed

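Total RNA from renal cortex of 12 kidney grafts was labelled with biotin and hybridised to Affymetrix 3′ expression arrays, per the labels' protocols. The authors deposited intensities of 31099 probe sets for each array, not log transformed, of which 3.56% stood at 0.01, the lowest value. MAS5 and GCOS are named without versions in the submitters' processing notes, with no further settings.

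The 57 control probe sets were left out and intensities below the pooled 20th percentile (0.0694) were replaced by it before taking log2. A filter at the 40th percentile of the mean log2 intensity (-2.53) left 18625 probe sets, which were tested with limma 3.58.1 in R 4.3.3 (lmFit, eBayes with a mean-variance trend), with genotype as the sole factor, Benjamini-Hochberg adjustment over all of them and a threshold of 0.05. The fit and the correlations were tested on simulated data. For the fit, arrays were drawn independently from the mean and SD of each probe set, without array sets. That simulation does not show how the fit behaves where arrays fall into sets. Exact two-sided permutation tests ran over all assignments of 6 and 6 arrays, with 0.00216 as the smallest p. Correlations were permuted within genotypes. Group and replicate came from the sample titles. Of the probe sets, 20832 name 1 gene, 436 several and 9780 none. The members, lists and tests were chosen with earlier results of these data known. Named in full were members with the 3 lowest p of each group, Atf4, Ddit3, Asns, Xbp1 and Hspa5, and of each further list of the pathway the 2 lowest p. Hsp90b1, Canx, Dnajb9, Ddit4, Psat1 and Trib3 were described further after their values were seen, as were the array sets and promoter elements. The alternatives changed the floor, filter, normalization, variance model, array weights, array set, Gapdh covariate and probe set choice, and left out each array. The number of arrays limits the precision.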

Additional observations from a re-analysis of the deposited data

Results flagged for a closer look

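Among 68 groups of 6 arrays (34 genes in 2 genotypes) a gap between the outermost array and its neighbour above Dixon's 95% critical share of the range was found in 2, and chance gives about 1 in 20. Ddit3 was 1.85 in wild-type replicate 7, above the other wild-type arrays, which lay between 1.49 and 1.59. Trib3 was 0.37 in deficient replicate 14, above the other deficient arrays, which lay between 0.156 and 0.208. Without deficient replicate 14 the Trib3 difference was 0.059, against 0.22 with it. Both arrays belonged to array set 2.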

How the results depend on the processing

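The direction of 14 of the 34 members (Trib3, Sesn2, Chac1, Eif2ak3, Xbp1, Hspa5, Hsp90b1, Dnajb11, Pdia4, Canx, Creld2, Herpud1, Sel1l and Syvn1) was kept in all 12 fits that left out an array and in each other alternative that tested it (Trib3 and Chac1 were not tested with the 60th percentile filter, nor Trib3 with the mean of probe sets), and 20 turned in at least 1. Negative differences numbered 23 to 29 in the other alternatives against 25, and 23 to 25 with an array left out. The difference between the arms stayed positive, from 0.065 to 0.16, and from 0.11 (without deficient replicate 14) to 0.19 with an array left out. The median of the ER chaperone arm stayed negative, from -0.19 to -0.057, and that of the ATF4 arm went from -0.0040 down to -0.061 with the median of each array subtracted, and up to 0.078 in array set 2 alone and to 0.11 without Psat1, Phgdh and Shmt2, and it lay between -0.036 and 0.064 with an array left out. Members that passed numbered 1 with the array set as a block (Hsp90b1, of 112 probe sets) and 4 in array set 2 alone (Ddit3, Sesn2, Dnajb9 and Syvn1, of 1227), against 0 of 4, and 0 passed in the other alternatives. With a filter at the 60th percentile 2 probe sets passed, and with an array left out 3 to 5. Asns minus Hspa5 was -0.14 in array set 2 alone. Correlations with Hspa5 that passed over all arrays numbered 2 after quantile normalization or median subtraction and 0 to 2 with an array left out, and those with Asns 1 after median subtraction and 0 to 1. With the median of each array subtracted the sign turned in Ppp1r15a (-0.053), Hyou1 (-0.038), Dnajb9 (-0.0048) and Sdf2l1 (-0.010). With array weights the sign turned in Asns (0.0048) and Dnajb9 (-0.026). In array set 1 alone the sign turned in Ddit3 (-0.20), Asns (0.16), Ddit4 (0.27), Nupr1 (-0.017), Dnajb9 (-0.29), Dnajc3 (0.023), Calr (0.0044) and Ero1a (0.042). In array set 2 alone the sign turned in Psat1 (0.021), Phgdh (0.13), Ppp1r15a (-0.14), Hyou1 (-0.063), Pdia3 (0.14) and Manf (0.25). With the Gapdh ratio as a covariate the sign turned in Atf4 (-0.060), Ddit3 (-0.13), Asns (0.086), Psat1 (0.020), Shmt2 (0.035), Ddit4 (0.025), Nupr1 (-0.080), Dnajb9 (-0.0087), Sdf2l1 (-0.0067), Ero1a (0.044) and Edem1 (0.12). With that ratio beside the array set as a block, an alternative chosen after seeing the data, the sign turned in Ddit3 (-0.087), Asns (0.052), Ddit4 (0.15), Nupr1 (-0.024) and Dnajb9 (-0.18). With the mean of all probe sets of a gene the sign turned in Atf6 (0.025). With an array left out the sign turned in Ppp1r15a (-0.054 to 0.062), Pdia6 (-0.064 to 0.0070), Phgdh (-0.071 to 0.066), Hyou1 (-0.0030 to 0.047), Ddit4 (-0.15 to 0.030), Dnajb9 (-0.020 to 0.13), Manf (-0.13 to 0.037), Asns (-0.11 to 0.0075), Sdf2l1 (-0.0025 to 0.094) and Shmt2 (-0.12 to 0.0094). The cause was not tested. No paired analysis was possible because the genotypes share fewer than 2 replicate numbers. Exact tests and correlations were not run with the filter, variance, weight, block and covariate alternatives, nor the arm difference with array weights.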
